A study of Sus scrofa with 19 samples.

Results

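MHC class I presentation and peptide processing were followed in the piglet adrenal gland through 4 genes, SLA-3, TAPBP, ERAP1 and PSMB9. The members were all probe sets whose only symbol in the array annotation is one of these names, which gave 5 probe sets for 4 genes. The array holds 27558 probe sets and 12218 genes with a symbol of their own. All 5 passed the filter on low values described here, as did 20668 probe sets in all. SLA-3 is probe set 15308107, TAPBP is 15315455, ERAP1 is 15266154, and PSMB9 has 15308818 and 15308830.

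MHC class I molecules show short peptides from inside the cell to cytotoxic T cells. PSMB9 is a catalytic subunit of the immunoproteasome, the form of the proteasome that cells assemble under interferon and that cuts proteins into peptides suited to class I. The transporter TAP carries peptides into the endoplasmic reticulum, ERAP1 trims them there to their final length, and TAPBP (tapasin) holds the empty class I molecule at TAP while a fitting peptide is loaded. SLA-3 is a classical class I heavy chain of the pig, where the MHC is called SLA, for swine leucocyte antigen. The heavy chain reaches the surface with beta-2 microglobulin, the product of B2M. Interferon gamma and the type I interferons are known to raise all of these genes.

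The glands came from 19 male piglets, 1 from each sow. Sows ate a control, fish oil or microalgae diet from gestation day 75, both supplements supplying omega-3 fatty acids with long chains, and received LPS or saline on gestation day 112. LPS is the bacterial lipopolysaccharide used to provoke inflammation. All piglets, those of saline sows included, were weaned at 21 days, received LPS at 28 days and were killed 2 hours later, so no gland of an unchallenged piglet was measured. Piglets keep the numbers of their labels here. Sows on the control diet contributed 3 piglets born after saline, numbered 8, 14 and 21, and 3 born after LPS, numbered 6, 16 and 17. Sows on fish oil contributed 4 of each kind: piglets 9, 11, 13 and 18 come from saline sows, piglets 10, 19, 20 and 24 from LPS sows. Sows on microalgae contributed piglets 12, 15 and 22 from the saline arm and only piglets 7 and 23 from the LPS arm.

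The values are log2 signals of single-colour Affymetrix arrays, and signals of different probe sets cannot be set against each other. Array medians lay between 4.38 and 4.52, and the interquartile ranges between 2.27 and 2.65. The narrowest arrays were those of piglets 24 and 6, then 15, 23 and 7, and the widest was that of piglet 20. All of these but piglet 15 are offspring of LPS sows, and piglets 7 and 23 are the whole microalgae LPS group. The highest medians, 4.51 to 4.52, were those of piglets 7, 24, 23 and 6, again from LPS sows. Array scale and maternal LPS thus went partly together. Of the markers fixed for the adrenal cortex, 5 of 14 were measured, with a mean signal per piglet between 10.21 and 10.78. Of 12 medulla markers 6 were measured, with a mean between 5.70 and 7.50. The labelled tissue was thus seen through both of its parts, although STAR, CYP11A1 and TH have no probe set of their own here.

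The 4 genes were well measured. Over the 19 piglets the mean signal was 7.96 ± 0.465 (SD) for SLA-3, above that of 93.6% of the probe sets tested. TAPBP had 6.66 ± 0.285, ERAP1 5.86 ± 0.287, and the PSMB9 probe sets 6.49 ± 0.442 (15308818) and 5.52 ± 0.477 (15308830). The genes differed in how much piglets of one group varied. The residual SD within groups was 0.466 for SLA-3, larger than that of 89.5% of probe sets tested, and 0.24 for ERAP1, larger than that of 39.9%. PSMB9 had 0.378 and 0.463 by its 2 probe sets. Some signals were shared to the last deposited digit: TAPBP stood at 6.67 in piglets 7, 8, 15 and 16, and PSMB9 15308830 at 5.54 in piglets 6, 7 and 22. Such a value in 3 or more piglets occurs in 15.5% of the probe sets tested. SLA-3 is close in sequence to the other classical heavy chain genes, so part of its signal may come from SLA-1 or SLA-2 transcripts.

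**Figure D1:**
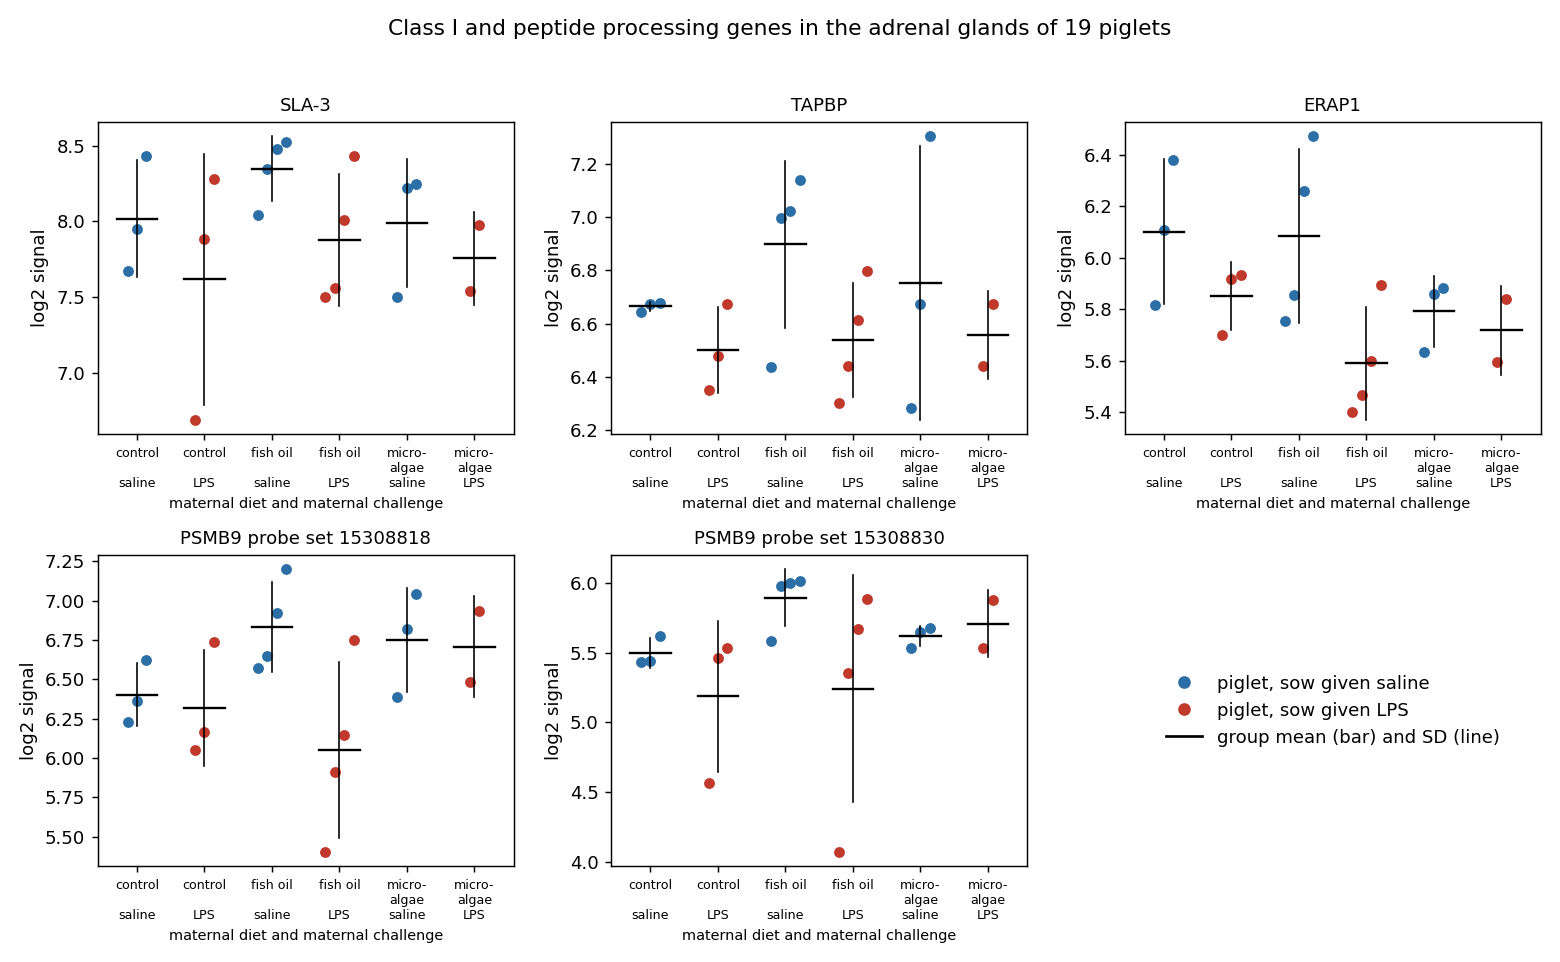
Log2 signal of each probe set (vertical axis, a separate scale in each panel) for every piglet, by maternal diet and maternal challenge (horizontal axis). Points are piglets, blue after maternal saline and red after maternal LPS, bars are group means and vertical lines SDs. In fish oil offspring PSMB9 15308818 lies at 6.57 to 7.20 after saline and at 5.40 to 6.75 after LPS, and no probe set separates these groups fully.

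Whether LPS in the sow left a mark on these genes in the offspring was asked first, by averaging the LPS minus saline difference of the 3 diets. All 5 probe sets were lower in the 9 piglets of LPS sows than in the 10 of saline sows, by 0.24 to 0.37 on the log2 scale, and none passed the adjusted threshold. Of all probe sets tested, 48.2% were lower. The 5 are not independent, since 2 belong to PSMB9 and the genes vary in part together across piglets. Adjustment by Benjamini-Hochberg in limma over all 20668 probe sets called 2, or 0.00968% of them, and 0 of the 5 here.

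PSMB9, which cuts the peptides, had signals from 6.23 to 7.20 after maternal saline (median 6.63) and from 5.40 to 6.93 after maternal LPS (median 6.17) by probe set 15308818. Piglet 20 was the lowest, and the ranges overlapped. The difference over the diets was -0.30 ± 0.165 (SE; limma p 0.0829, adjusted 0.705). Probe set 15308830 ran from 5.43 to 6.02 after saline (median 5.63) and from 4.07 to 5.88 after LPS (median 5.54). Here piglets 17 and 20 stood far under the others, and the difference was -0.29 ± 0.197 (limma p 0.156, adjusted 0.739).

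ERAP1, the trimming enzyme, ran from 5.63 to 6.47 after saline (median 5.87) and from 5.40 to 5.93 after LPS (median 5.70). All 9 piglets of LPS sows lay under 5.94, a level that 4 of the 10 piglets of saline sows exceeded. The difference was -0.27 ± 0.115, or 0.827 times the saline level, with limma p 0.0281 and adjusted p 0.687. ERAP1 was the only one of the 5 probe sets lower at an unadjusted p under 0.05, which 3.59% of all probe sets were in that direction.

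TAPBP, the loading factor, ran from 6.28 to 7.30 after saline (median 6.68) and from 6.30 to 6.80 after LPS (median 6.48). The piglets above 6.80 were all born to saline sows, while the lower ends of both groups met. The difference was -0.24 ± 0.13 (limma p 0.0818, adjusted 0.703). SLA-3, the heavy chain, ran from 7.50 to 8.52 after saline (median 8.23) and from 6.69 to 8.43 after LPS (median 7.88). Its lowest value was that of piglet 16, and its difference was -0.37 ± 0.199 (limma p 0.0811, adjusted 0.702). SLA-3, TAPBP, ERAP1 and PSMB9 15308818 were each lower by their group means in all 3 diets, as were 13.4% of all probe sets. PSMB9 15308830 was not lower in microalgae offspring. In whole glands, fewer cells of a type and less RNA per cell cannot be told apart.

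**Figure D2:**
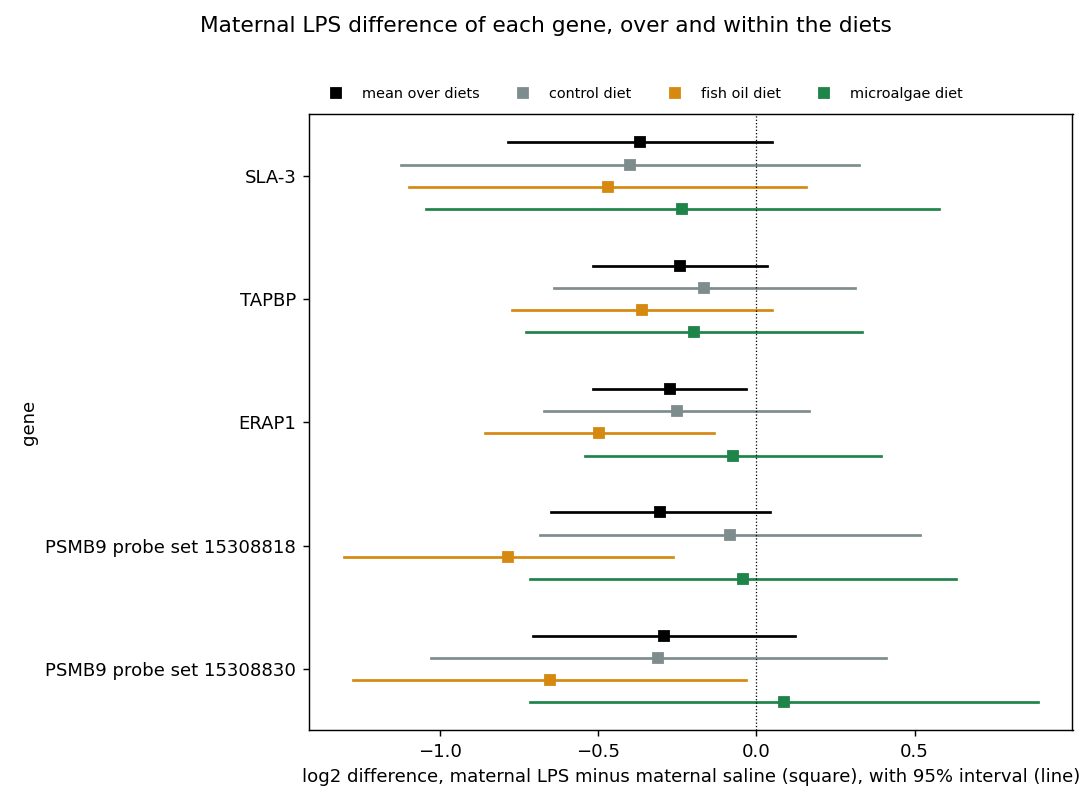
Log2 difference of maternal LPS minus maternal saline (horizontal axis) for each probe set (vertical axis), as the mean over diets (black) and within the control (grey), fish oil (orange) and microalgae (green) diets. Squares are estimates and lines their 95% intervals without adjustment. In the fish oil diet the intervals of ERAP1 and both PSMB9 probe sets lie under 0, and in the control and microalgae diets every interval spans 0.

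The differences were not of one size in the 3 diets. In fish oil offspring, 4 piglets against 4, all 5 probe sets were lower after maternal LPS, by 0.36 to 0.78, beside 48.9% of all probe sets. At an unadjusted p under 0.05, 3 of the 5 were lower, ERAP1 and both of PSMB9, where 2.88% of all probe sets were. The genes were chosen with earlier results of these data known, so this count is a description. The smallest adjusted p of the 5 in limma was 0.621, and over all probe sets 0 passed in this diet, with 883 at an unadjusted p under 0.05.

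PSMB9 15308818 had signals of 7.20, 6.65, 6.57 and 6.92 in fish oil piglets 9, 11, 13 and 18 of saline sows. In piglets 10, 19, 20 and 24 of LPS sows it had 6.15, 5.91, 5.40 and 6.75. Only piglet 24 reached the range of the saline group, and the other 3 lay under all of it. The difference was -0.78 ± 0.247, or 0.581 times the saline level, with a 95% interval from -1.30 to -0.26 and limma p 0.00541. Without piglet 20 it was -0.57 (p 0.0276), and without piglet 24 -1.02 (p 0.000369).

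The other PSMB9 probe set, 15308830, stood between 5.98 and 6.02 in piglets 9, 13 and 18 and at 5.59 in piglet 11, and had 5.67, 5.35, 4.07 and 5.88 in piglets 10, 19, 20 and 24. Its difference of -0.65 ± 0.295 (limma p 0.0405) rested largely on piglet 20. Without that piglet it was -0.26 (p 0.224), less than 1 residual SD. The 2 probe sets of PSMB9 therefore gave the same sign and unlike sizes once piglet 20 was left out.

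ERAP1 had 6.26, 5.86, 5.75 and 6.47 in piglets 9, 11, 13 and 18 and 5.90, 5.60, 5.47 and 5.40 in piglets 10, 19, 20 and 24. Piglets 19, 20 and 24 lay under the whole saline group, and piglet 10 inside it. The difference was -0.50 ± 0.172, or 0.709 times the saline level, with a 95% interval from -0.86 to -0.13 and limma p 0.01. It stayed between -0.61 and -0.37 whichever single piglet was left out, with p from 0.00335 to 0.0484.

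TAPBP had 7.03, 6.996, 6.44 and 7.14 in piglets 9, 11, 13 and 18 and 6.80, 6.44, 6.30 and 6.61 in piglets 10, 19, 20 and 24. Saline piglets 9, 11 and 18 lay above all of the LPS group, and piglet 13 lay among its lower values. The difference was -0.36 ± 0.196 (limma p 0.082), and -0.52 without piglet 13 (p 0.0167). It became smaller without piglet 18, the highest of the saline group, or without piglet 20, the lowest of the LPS group. SLA-3 had 8.34, 8.52, 8.04 and 8.48 in piglets 9, 11, 13 and 18 and 8.01, 7.56, 7.50 and 8.43 in piglets 10, 19, 20 and 24. Piglet 24 was among the high values again, and the difference was -0.47 ± 0.298 (limma p 0.133). For 0 of the 5 probe sets were these groups fully apart, against 2.18% of all probe sets.

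Piglets 20 and 24 were also the widest and the narrowest array. With the interquartile range of each array as a covariate, the fish oil differences were -0.90 and -0.76 for the PSMB9 probe sets, -0.48 for ERAP1, -0.37 for TAPBP and -0.59 for SLA-3. These were as large as or larger than the values without it for SLA-3, TAPBP and PSMB9, and close to it for ERAP1.

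In control offspring, 3 piglets against 3, all 5 probe sets were lower after maternal LPS, by 0.08 to 0.40, beside 49.7% of all probe sets. At an unadjusted p under 0.05 there were 0 of 5, beside 1.74% of all probe sets in either direction. SLA-3 had 8.43, 7.95 and 7.67 in piglets 8, 14 and 21 and 8.28, 6.69 and 7.88 in piglets 6, 16 and 17. Its difference of -0.40 ± 0.344 (limma p 0.261) rested on piglet 16, without which it was 0.06. ERAP1 had 6.38, 6.11 and 5.82 after saline and 5.92, 5.70 and 5.93 after LPS, a difference of -0.25 ± 0.199 (limma p 0.221). PSMB9 15308818 had 6.62, 6.36 and 6.23 after saline and 6.74, 6.17 and 6.05 after LPS, a difference of -0.08 ± 0.286. PSMB9 15308830 was lowest in piglet 17, at 4.56, and its difference of -0.31 ± 0.341 was 0.00288 without that piglet. TAPBP had a difference of -0.16 ± 0.226.

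In microalgae offspring, 2 piglets against 3, the differences were -0.23 ± 0.385 for SLA-3, -0.20 ± 0.253 for TAPBP, -0.07 ± 0.222 for ERAP1, and -0.04 ± 0.319 and 0.09 ± 0.381 for PSMB9. None of the 5 had an unadjusted p under 0.05, while 11.7% of all probe sets did. PSMB9 15308818 had 7.04, 6.82 and 6.39 in piglets 12, 15 and 22 and 6.93 and 6.48 in piglets 7 and 23, so both groups covered the same range. TAPBP had 7.30, 6.67 and 6.28 after saline, the widest spread of any group for that gene, and 6.67 and 6.44 after LPS.

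Whether the diets differed in this effect was tested by interaction terms. For fish oil against the control diet all 5 were negative, from -0.70 to -0.07, beside 50.3% of all probe sets. At an unadjusted p under 0.05 there were 0 of 5, beside 2.64% of all probe sets in either direction. The largest estimate was that of PSMB9 15308818, -0.70 ± 0.378, with a 95% interval from -1.496 to 0.09 (limma p 0.0804, adjusted 1.0). ERAP1 had -0.24 ± 0.263 and SLA-3 -0.07 ± 0.455. For fish oil against microalgae 0 of 5 had an unadjusted p under 0.05 beside 7.23% of all probe sets, with -0.74 ± 0.404 for PSMB9 15308818 and -0.42 ± 0.281 for ERAP1. The larger differences in fish oil offspring were thus not shown to differ from those in the other diets.

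The diets themselves, averaged over both maternal challenges, were compared next. Fish oil against the control diet gave 4 of 5 probe sets higher and ERAP1 lower, where 10414 of all 20668 probe sets were higher. None of the 5 had an unadjusted p under 0.05, which 2.69% of all probe sets had. SLA-3 was at 0.29 ± 0.228, TAPBP at 0.14 ± 0.149, PSMB9 at 0.08 ± 0.189 and 0.23 ± 0.226, and ERAP1 at -0.14 ± 0.131. Among offspring of saline sows the fish oil piglets had the highest group mean of the 6 groups for SLA-3 (8.35 ± 0.215, n = 4), TAPBP (6.90 ± 0.315) and both PSMB9 probe sets (6.84 ± 0.287 and 5.89 ± 0.206). The difference from the control diet there was 0.43 ± 0.267 for PSMB9 15308818 (limma p 0.123), and after maternal LPS it was -0.27 ± 0.267 (p 0.33). The 95% intervals of both differences include 0.

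Microalgae against the control diet gave PSMB9 at 0.37 ± 0.214 (limma p 0.103) and 0.32 ± 0.256, ERAP1 at -0.22 ± 0.149, TAPBP at 0.07 ± 0.169 and SLA-3 at 0.06 ± 0.258, with 0 of 5 at an unadjusted p under 0.05 beside 1.65% of all probe sets. Fish oil against microalgae likewise gave 0 of 5, beside 2.85% of all probe sets, with the largest value -0.29 ± 0.202 for PSMB9 15308818. The 95% intervals of these diet differences reached at most 0.86 in size, for PSMB9 15308830 under microalgae against control.

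The rest of the class I route was read from lists of 55 other genes, of which 38 have a probe set of their own and 36 were tested. Each gene is given by its probe set with the highest mean unless a number is named. PSMB8, PSMB10 and NLRC5 are not among them. In fish oil offspring 22 of the 36 were lower after maternal LPS, with a median of -0.05, beside 10100 of all 20668 probe sets and a median of 0.01. Those lower at an unadjusted p under 0.05 were 8 of 36, and 0 of 36 were higher at that level, beside 2.88% of all probe sets lower. The lists were chosen with earlier results of these data known, so these counts describe and do not test. None passed after adjustment.

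Along the route the larger differences lay at some steps and not at others. At transport and loading, TAP1 and TAP2, the 2 chains of the peptide transporter, had -0.67 ± 0.249 (limma p 0.0156) and -0.66 ± 0.243 (p 0.0143). TAP1 had 8.76, 8.47, 8.54 and 8.77 in the saline piglets 9, 11, 13 and 18 and 8.19, 8.07, 7.15 and 8.46 in the LPS piglets 10, 19, 20 and 24. All 4 LPS piglets lay under all 4 saline piglets, and groups fully apart in this diet made up 2.18% of all probe sets. Piglet 24, at 8.46, was barely under piglet 11, at 8.47, and piglet 20 was far under. Without piglet 20 the differences were -0.39 (p 0.0807) for TAP1 and -0.37 (p 0.0712) for TAP2. TAPBPL, a relative of TAPBP that edits peptides, had -0.41 ± 0.169 (p 0.0277), and -0.34 without piglet 20 (p 0.0809). Of the general folding factors of the endoplasmic reticulum that also serve class I, HSPA5 was at 0.15 ± 0.145, CALR at 0.14 ± 0.108, PDIA3 at 0.07 ± 0.165, CANX at 0.03 ± 0.144 and UGGT1 at -0.06 ± 0.148, all with 95% intervals that include 0.

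At peptide trimming ERAP2, the partner of ERAP1, had the larger difference of the pair, -0.73 ± 0.21 (limma p 0.00282, adjusted 0.485). It had 5.76, 5.20, 4.81 and 5.44 after saline and 4.90, 4.64, 4.06 and 4.69 after LPS, with only piglets 10 and 13 overlapping. Over the 3 diets ERAP2 was at -0.43 ± 0.14 (p 0.00678). LNPEP, NPEPPS, BLMH and THOP1, peptidases of wider use, lay between -0.09 and 0.07 in fish oil offspring. ERAP1 and ERAP2 are neighbours in RefSeq's annotation of assembly Sscrofa11.1, and PSMB9 lies beside TAP1.

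At the proteasome PSMB9 was the only immunoproteasome subunit with a probe set of its own. The activator subunits PSME1 and PSME2, which interferon gamma also raises, had -0.24 ± 0.146 and -0.31 ± 0.218, and PSME3 0.09 ± 0.218. The constitutive catalytic subunits had 0.28 ± 0.157 for PSMB5, 0.09 ± 0.173 for PSMB6, whose place PSMB9 takes, and -0.05 ± 0.125 for PSMB7. The difference of PSMB9 was thus not matched by the subunit it replaces, though the contrast between them was not tested.

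Among the chains of the class I molecule, B2M was at -0.19 ± 0.18 (limma p 0.299) in fish oil offspring and 0.17 ± 0.207 in control offspring. SLA-7, a nonclassical heavy chain, had -0.47 ± 0.233 (p 0.0586), close to SLA-3. Other heavy chains differed less: SLA-8 had group means of 5.65 after saline and 5.43 after LPS, and SLA-6 of 4.97 and 4.96. SLA-5 had the opposite sign, 0.72 ± 0.461 (p 0.139), with 7.01, 5.63, 5.13 and 7.64 in piglets 10, 19, 20 and 24 against 6.23, 6.08, 4.99 and 5.25 in piglets 9, 11, 13 and 18. Piglets 10 and 24 lay above the saline range for SLA-5 and piglets 19 and 20 inside it.

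**Figure D3:**
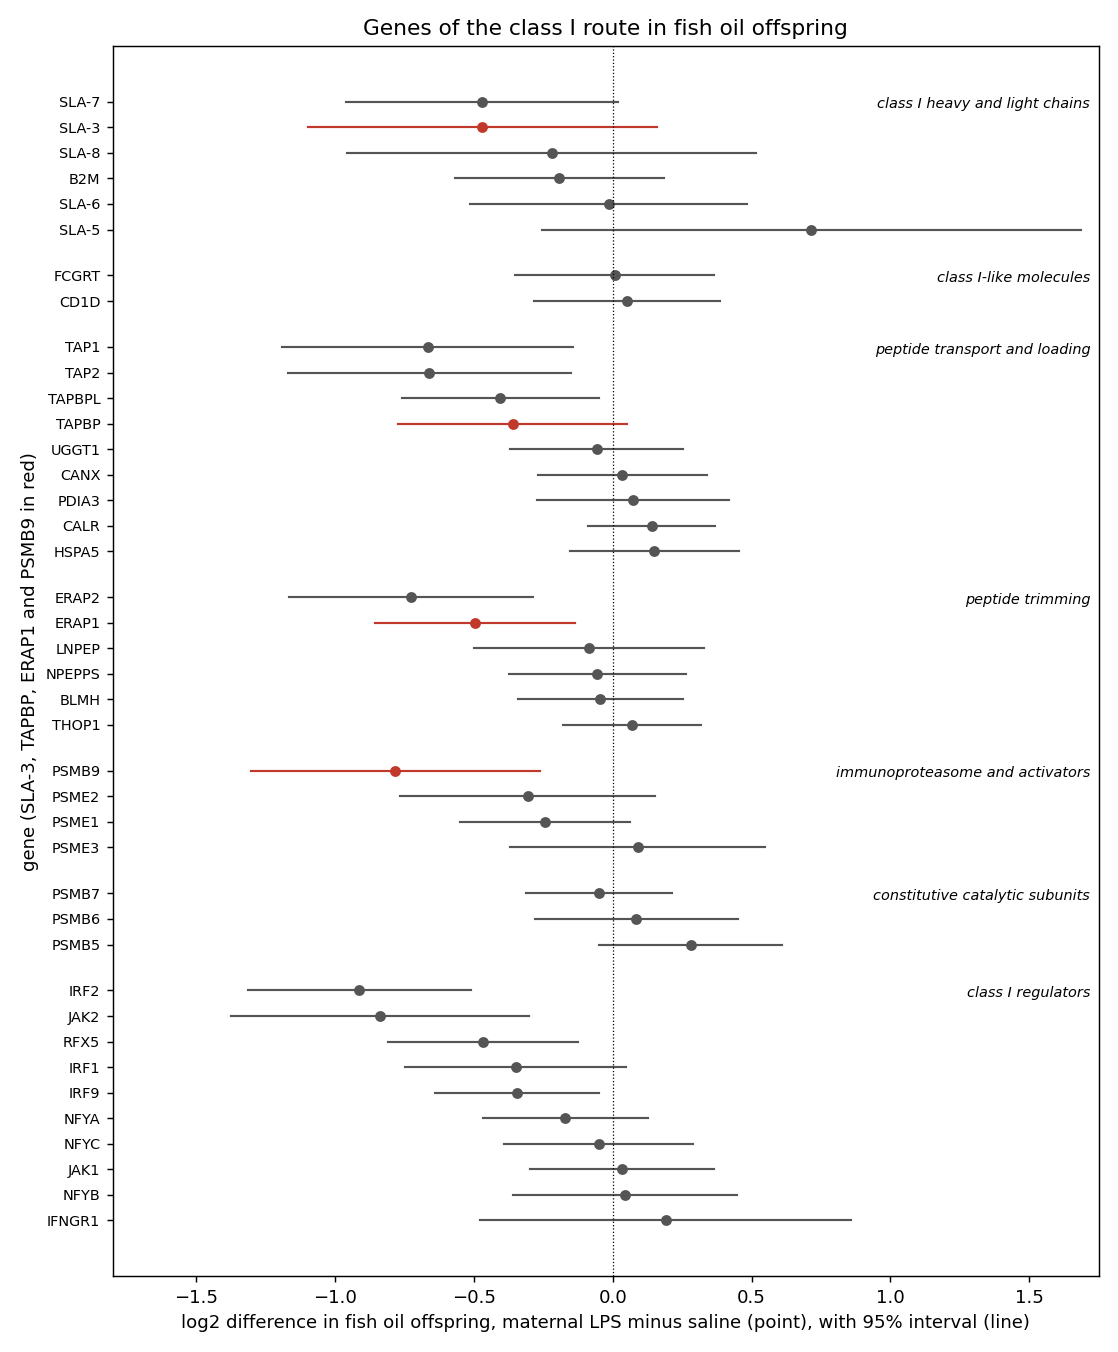
Log2 difference of maternal LPS minus maternal saline in fish oil offspring (horizontal axis) for each tested gene of the class I route (vertical axis), grouped by step. Points are estimates and lines 95% intervals without adjustment, and SLA-3, TAPBP, ERAP1 and PSMB9 are red. PSMB9 at -0.78, ERAP2 at -0.73 and TAP1 at -0.67 lie to the left with IRF2 and JAK2, while CALR, CANX and PSMB6 lie near 0.

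Of the regulators, IRF2, a DNA-binding factor that shares its element with IRF1, had -0.91 ± 0.191 (limma p 0.000158, adjusted 0.212). It had 7.67, 7.76, 7.79 and 7.95 in the fish oil saline piglets and 7.04, 6.87, 6.97 and 6.63 in the LPS piglets. These groups were fully apart, as were those of 2.18% of all probe sets. Over the 3 diets IRF2 was at -0.63 ± 0.127 (p 0.000112, adjusted 0.145), and without piglet 20 its fish oil difference was -0.94. JAK2, the kinase behind the interferon gamma receptor, had -0.84 ± 0.256 (p 0.00425) in fish oil offspring, and RFX5, which binds MHC promoters, -0.47 ± 0.163 (p 0.0103). IRF9, a DNA-binding factor of the type I interferon response, had -0.35 ± 0.141 (p 0.0245; -0.26 without piglet 24, p 0.0796), and IRF1, the activator of class I genes, -0.35 ± 0.189 (p 0.0812). JAK2, IRF9 and IRF1 had differences of 0.12, 0.08 and 0.06 in microalgae offspring. Over the diets 27 of the 36 other route genes were lower, with a median of -0.11, beside 9952 of 20668 probe sets and a median of 0.01. IRF2, ERAP2, JAK2 and RFX5 were the 4 of 36 with an unadjusted p under 0.05, all lower, beside 3.59% of all probe sets lower.

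In control offspring 0 of the 36 had an unadjusted p under 0.05, beside 1.74% of all probe sets, a share at which few calls among 36 could be seen. In microalgae offspring 4 of 36 were lower at that level and none higher, a share near the 11.7% of all probe sets there: IFNGR1, a chain of the interferon gamma receptor, at -1.17 ± 0.41, PSMB6 at -0.61 ± 0.224, IRF2 at -0.60 ± 0.246 and PDIA3, a thiol chaperone of the loading complex, at -0.47 ± 0.213. PSMB9, TAP1 and ERAP1 were not among them. The interaction of fish oil against microalgae was -0.94 ± 0.407 for TAP1 (limma p 0.0333, adjusted 0.667) and -0.96 ± 0.417 for JAK2 (p 0.0335). It was positive for IFNGR1, at 1.36 ± 0.519 (p 0.0172), and PSMB6, at 0.70 ± 0.283 (p 0.0237). These 4 of 36 stand beside 7.23% of all probe sets, and the route shows no one direction in this comparison.

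Class II genes, which present peptides from outside the cell, were read beside these. Of 10 measured, 5 were lower and 5 higher in fish oil offspring after maternal LPS, with a median of -0.06 close to that of the other class I route genes, with SLA-DRA at -0.12 ± 0.203 and SLA-DQA1 at 0.05 ± 0.199. IFI30, an interferon-induced reductase of the class II route, was the 1 with an unadjusted p under 0.05, at -0.43 ± 0.196. Of 26 interferon-stimulated genes outside the class I route all were lower there, with a median of -1.05, and 25 of them at an unadjusted p under 0.05, beside 2.88% of all probe sets lower. This list was chosen with earlier results of these data known, so its counts are a description and not a test. Their mean signal per piglet ran from 8.43 to 8.70 after saline and from 6.69 to 7.95 after LPS, with a group mean of 7.53, so the lowest LPS piglet stood well under its group. Among them were RSAD2 at -1.75 ± 0.511 and USP18 at -1.36 ± 0.398, both of the antiviral response. In control offspring that list had a median of -0.16, with 20 of 26 lower and none at that level. PSMB9, ERAP1 and the TAP genes shared the direction of the list in fish oil offspring, at sizes under its median of -1.05. Some genes of the list differed less than these, such as OAS1 at -0.43 and IFI44 at -0.44.

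Markers of leucocytes, which carry much class I, were measured beside these genes. Of 13 macrophage markers 11 were lower in fish oil offspring after maternal LPS (median -0.15), beside 48.9% of all probe sets lower in this diet. None of the 13 had an unadjusted p under 0.05 there. Their mean signal per piglet ran from 5.03 to 5.89 after saline and from 5.08 to 5.54 after LPS. In control offspring all 13 were higher after maternal LPS (median 0.39), beside 10404 of all 20668 probe sets. That mean was 4.90 to 5.12 after saline and 5.35 to 5.40 after LPS in control offspring. Of 12 tested lymphocyte markers 5 were lower in fish oil offspring (median 0.06), with mean signals per piglet of 4.004 to 4.44 and 4.01 to 4.59, and 3 of the 15 on the array were too low to test. All 6 medulla markers were lower there (median -0.39), with means per piglet of 6.34 to 7.29 after saline and 6.05 to 6.89 after LPS. Endothelial markers had a median of 0.02. Of 10 fibroblast and capsule markers 9 were higher there (median 0.29), with means per piglet of 5.45 to 6.51 after saline and 5.32 to 6.86 after LPS, none at an unadjusted p under 0.05. The part of any of these cells in the class I differences was not tested.

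Across single piglets the 4 genes varied together only in part. Pearson's r over the 19 piglets, given as a description since the arrays share all processing, was 0.78 between the 2 probe sets of PSMB9. It was 0.64 for SLA-3 with PSMB9 15308818, 0.64 for TAPBP with PSMB9 15308818, 0.50 for SLA-3 with TAPBP and 0.43 for ERAP1 with PSMB9 15308818. After group means were taken out these became 0.70, 0.70, 0.58, 0.33 and 0.32. With the other PSMB9 probe set, 15308830, r was weaker, at 0.39 for SLA-3, 0.49 for TAPBP and 0.31 for ERAP1. After group means were removed, these 3 became 0.23, 0.33 and 0.13. Piglets 9 and 18, both fish oil after saline, were among the 5 highest of the 19 for all 5 probe sets. Piglets 19 and 20, both fish oil after LPS, were among the 5 lowest for all 5. Piglet 24 of the same group was among the 5 highest for 2 probe sets and the lowest of all for ERAP1.

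Of TAP1, TAP2, B2M and IRF1, PSMB9 had the higher r with the TAP genes. Probe set 15308818 had r = 0.89 with TAP2 and 0.87 with TAP1, and 0.85 and 0.86 after group means were taken out. Without piglets 19 and 20, the farthest from its median, r was 0.84 and 0.77. With B2M it was 0.51, and 0.35 without these piglets, and with IRF1 0.52 and 0.40. PSMB9 15308830 had 0.84 with TAP2, and 0.57 without piglets 17 and 20.

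**Figure D4:**
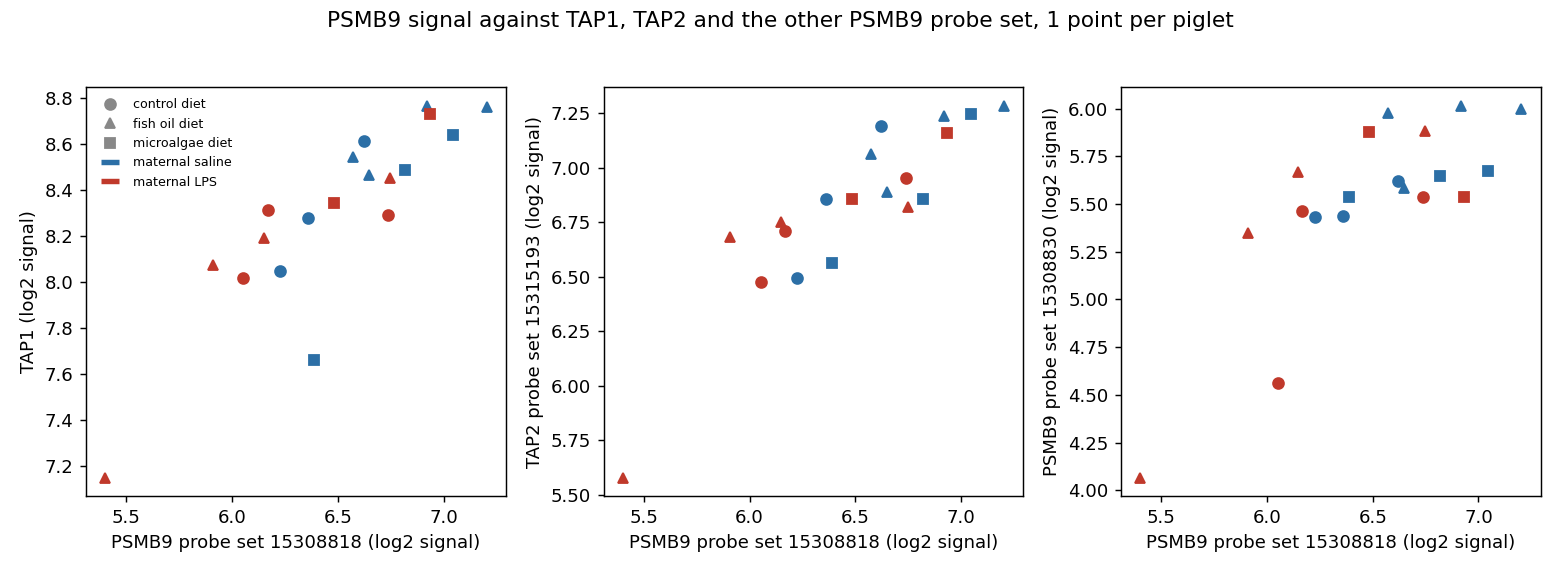
Signal of PSMB9 15308818 (horizontal axis, log2) against TAP1, TAP2 and the other PSMB9 probe set (vertical axes, log2), 1 point per piglet. Shapes give the maternal diet, and colours give maternal saline (blue) or LPS (red). Points rise together, with r of 0.87, 0.89 and 0.78, and piglet 20 lies alone at the lower left of each panel.

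The genes most like each member were taken as the 5 with the highest r among all tested probe sets with 1 symbol. For PSMB9 15308818 they were GVIN1 (0.89), TAP2 (0.89), RSAD2 (0.89), USP18 (0.87) and TOR3A (0.87). For PSMB9 15308830 they were TAP2, CD5, KHNYN, TAP1 and GVIN1, from 0.84 to 0.78. TAPBP was most like ACLY (0.88), the enzyme that supplies acetyl-CoA for lipid synthesis, then the chemokine CXCL11 (0.85), IFI30, TBC1D22B and PML. ERAP1 was most like RUSC1 (0.77), RFX5 (0.73), ETV7, ATP10D and PML. SLA-3 was most like CD86 (0.82), MED25, CD80 (0.75), FLRT1 and FGF21, CD86 and CD80 being the costimulatory ligands that antigen presenting cells show beside MHC. After group means were taken out, these r were 0.86 for SLA-3 with CD86, 0.88 for TAPBP with ACLY, 0.73 for ERAP1 with RUSC1, and 0.84 and 0.81 for PSMB9 with GVIN1 and TAP2. The 95th percentile of r over all tested probe sets was between 0.37 and 0.49 for these members, so each leading gene lay well above it, as the highest of so many must.

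Some probe sets carry the symbols of several class I genes and were not counted as members. The one shared by TAP2 and PSMB8, the companion immunoproteasome subunit, had -0.65 ± 0.275 in fish oil offspring (limma p 0.0288) and -0.46 ± 0.183 over the diets (p 0.0221). The one shared by SLA-1 and SLA-2 varied most, with an SD of 1.11 over all 19 piglets and a range from 6.12 to 10.25. Its difference after maternal LPS was -0.33 ± 0.675 in fish oil offspring, and it was at 0.99 ± 0.515 for fish oil against the control diet (p 0.0703). A probe set shared by SLA-1 and LOC100513601 had -0.62 ± 0.440 in fish oil and 0.84 ± 0.567 in microalgae offspring. Over the diets it was at -0.08 ± 0.293.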

How the data were processed

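Whole adrenal glands were snap-frozen, and RNA was extracted with Qiagen's RNeasy kit and labelled with the Affymetrix WT PLUS kit, per the labels' protocols. Transcriptome Analysis Console 4.0 is the software listed in the submitters' processing notes; the method of summarization and normalization was not given in the sources used here. All log2 values run from 0.263 to 13.5 as deposited, a range from which base 2 was taken, and were used as they stand. The annotation gives 1 symbol to 13157 of the 27558 probe sets, several to 523 and none to 13878.

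Probe sets with a mean under 3.23, the lowest 25%, were left out, which kept 20668. Group means of all 6 groups were estimated together by limma 3.58.1 under R 4.3.3 (lmFit, then eBayes with a trend in intensity), leaving 13 residual and 4.62 prior degrees of freedom. P values are limma's, two-sided and unadjusted unless called adjusted, which means Benjamini-Hochberg over all 20668, with a threshold of 0.05. The number of arrays limits the precision: the median SE was 0.12 over the diets and 0.18 within fish oil. Replicates are separate piglets of separate sows. The members and gene lists were chosen with earlier results of these data known. Each member was named, with the 5 genes of highest Pearson r across piglets. Route genes were named where the unadjusted p was under 0.05, up to 8 a comparison, beside B2M, TAP1, TAP2 and IRF1. SLA-5, SLA-6, SLA-7, SLA-8, the chaperones and the peptidases of wider use were named after their values were seen. So were the proteasome subunits and the class II and interferon genes. TAP1 has 2 probe sets with identical values, counted once among the route genes and both counted in the search for piglets that stood apart. The workflow was tested on simulated data. Filters, scalings, models and single piglets were varied. No sequence is shown, and the promoter motif search planned was not run.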

Additional observations from a re-analysis of the deposited data

Results flagged for a closer look

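Single piglets stood apart from the rest of their group by the ratio of the gap to the nearest piglet over the group's range being above Dixon's 95% critical value for 4 samples. This was seen 3 times in 24 groups examined, those of 4 fish oil piglets for the members and for B2M, IRF1, TAP1 and TAP2, and chance alone gives about 1 in 20 groups. Several of the 24 are probe sets of the same gene. PSMB9 15308830 was at 5.59 in piglet 11 of the fish oil saline group, where the other 3 piglets lay between 5.98 and 6.02. TAP2 was at 5.40 (probe set 15315159) and 5.58 (15315193) in piglet 20 of the fish oil LPS group, where the next piglet had 6.69 and 6.68. The same piglet had the lowest TAP1 of all 19, 7.15, and the lowest value of both PSMB9 probe sets.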

How the results depend on the processing

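The 5 probe sets were refitted with no filter, a stricter filter that kept the probe sets above the median mean, quantile normalization, the median of each array subtracted, array weights, an additive model, the interquartile range of each array as a covariate, no intensity trend, without piglets 6 and 24 together and without each piglet in turn. Of 1640 values, 1585 kept their direction and their side of the adjusted threshold, 55 turned direction and 0 crossed the threshold. The differences over the diets and within fish oil kept their sign in every one of these settings (the additive model has no value within fish oil). Their sizes moved with scaling. With all piglets kept, quantile normalization gave the weakest differences over the diets for SLA-3 (-0.30), TAPBP (-0.18) and PSMB9 (-0.24 and -0.27). The array covariate gave the strongest for SLA-3 (-0.54) and PSMB9 (-0.47 and -0.44). For PSMB9 15308818 limma p ran from 0.00211 to 0.228 over these settings. Among related genes, leaving out piglet 20 or 24 was added after the data were seen. The cause of the turns was not tested. The count of all probe sets past the adjusted threshold over the diets, 2, was 0 with no filter, quantile normalization, the additive model, the array covariate or without piglets 6 and 24, 9 with array weights, and 0 to 12 without 1 piglet, the highest without piglet 7. No paired analysis was possible because the piglet numbers are not shared between groups.

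Beyond single piglets, quantile normalization turned PSMB9 15308818 in microalgae offspring (0.068) and the TAPBP interaction of microalgae against control (0.046). Subtracting medians turned PSMB9 15308830 in microalgae offspring (-0.016), the PSMB9 15308818 interaction of microalgae against control (-0.045) and ERAP1 in fish oil against control after saline (0.00254). The array covariate gave -0.13 and -0.053 for the first 2 of these. Without piglets 6 and 24 the SLA-3 interaction of fish oil against control was 0.077.

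Leaving out 1 piglet moved the maternal LPS difference in control offspring from -0.73 to 0.064 for SLA-3, -0.29 to 0.050 for PSMB9 15308818 and -0.48 to 0.00288 for PSMB9 15308830. In microalgae offspring it ran from -0.43 to 0.079 for TAPBP, -0.20 to 0.049 for ERAP1, -0.27 to 0.18 for PSMB9 15308818 and -0.083 to 0.26 for PSMB9 15308830. Fish oil against control ran from -0.033 to 0.19 for PSMB9 15308818, microalgae against control from -0.18 to 0.22 for SLA-3 and -0.065 to 0.19 for TAPBP, and fish oil against microalgae from -0.054 to 0.20 for TAPBP and -0.20 to 0.10 for PSMB9 15308830. The interaction of fish oil against control ran from -0.53 to 0.26 for SLA-3 and -0.66 to 0.048 for PSMB9 15308830. That of microalgae against control ran from -0.30 to 0.50 for SLA-3, -0.27 to 0.24 for TAPBP and -0.18 to 0.27 for PSMB9 15308818, and that of fish oil against microalgae from -0.45 to 0.00773 for SLA-3 and -0.44 to 0.071 for TAPBP. Fish oil against control after saline ran from -0.16 to 0.12 for ERAP1, and after LPS from -0.20 to 0.59 for SLA-3, -0.049 to 0.12 for TAPBP and -0.26 to 0.45 for PSMB9 15308830.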

Other observations

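SLA-5 and SLA-3, both class I heavy chains, did not share their extremes. SLA-5 had its 3 highest signals in piglets 24, 10 and 6, at 7.64, 7.01 and 6.98, where all other piglets lay at or under 6.23. These 3 piglets had SLA-3 signals of 8.43, 8.01 and 8.28, and all are offspring of LPS sows, 2 from fish oil and 1 from the control diet. SLA-3 was lowest in piglet 16, at 6.69, where SLA-5 had 5.45.

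B2M, by its brighter probe set, was lower after maternal LPS in the microalgae offspring, with 11.04 and 10.96 in piglets 7 and 23 against 11.47, 11.54 and 11.12 in piglets 12, 15 and 22, a difference of -0.38 ± 0.232 (limma p 0.123).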
